A study of Mus musculus with 10 samples.

Results

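Integrins, laminins and the other genes of the muscle stem cell niche were examined in muscle stem cells (MuSCs, or satellite cells) of control mice and of mice with a conditional knockout (cKO) of Trpm7, which encodes a magnesium-permeable channel joined to a kinase. The rule for membership uses the gene symbol and no measured value. It holds the integrin alpha and beta subunits, the laminin chains, nidogen 1 and 2, fibronectin (Fn1), tenascin C (Tnc), agrin (Agrn), perlecan (Hspg2), dystroglycan (Dag1) and Sparc. Of the 24608 gene symbols in the counts, 44 belonged to it, namely 17 integrin alpha subunits, 8 integrin beta subunits, 11 laminin chains and 8 other matrix genes. Itgam, Itgax, Itgal and Itgb2 encode integrins of leukocytes and are given apart.

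RNA was measured in 5 control and 5 Trpm7 cKO libraries, each from 3000 sorted YFP-positive cells of C57BL6 adult mice taken 3 days after cardiotoxin (CTX) injury of the muscle. The methods give the genotypes as Trpm7 flox/flox; Pax7 CreERT2/+; Rosa26 YFP for the cKO mice and Trpm7 +/+; Pax7 CreERT2/+; Rosa26 YFP for the control mice. Mice of both genotypes therefore carried the tamoxifen-inducible Cre and the YFP reporter and received tamoxifen and CTX. CEL-Seq2 reads the 3′ end of a transcript and counts each molecule once through its unique molecular identifier, so that a count does not grow with transcript length. Cre is driven by Pax7, so that recombination was restricted to cells that express Pax7 and their progeny. A number of unstated meaning is common to the labels of Trpm7 cKO replicates 4 and 5, and where nothing says that libraries came from separate animals, p-values measure only the spread between these libraries.

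MuSCs lie between the myofiber and its basement membrane. An integrin is a pair of one alpha and one beta subunit, and the pair decides which matrix protein the cell binds. Laminins are trimers of an alpha, a beta and a gamma chain that form the sheet of the basement membrane, nidogen and perlecan link that sheet to collagen IV, and dystroglycan joins it to dystrophin inside the cell. In muscle the laminin receptor integrin alpha 7 beta 1 and dystroglycan are known as the main anchors to laminin, and fibronectin and tenascin C are known as matrix proteins laid down for a time after injury.

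Control libraries held 914361 to 1097709 counts and Trpm7 cKO libraries 205986 to 581121, and because no control was as small as any Trpm7 cKO library, the effect of depth cannot be told apart from that of genotype. The members took 0.315% to 0.389% of the counts in control and 0.491% to 0.608% in Trpm7 cKO libraries. Which exons of Trpm7 were floxed is not given in the sources used here, so that its 3′ counts were not read as a check of the deletion (66 to 84 counts in control and 10 to 55 in Trpm7 cKO libraries). Pax7, the transcription factor that marks MuSCs, was present in every library, at normalized levels of 166 to 259 CPM (counts scaled to the TMM-adjusted library total) in control and 265 to 557 CPM in Trpm7 cKO. On the same scale Trpm7 was at 66.6 to 90.1 CPM in control and 46.4 to 101 CPM in Trpm7 cKO. Its ranges overlapped, and it was not called (log2 fold change -0.09, standard error 0.20, edgeR adjusted p = 0.723). The 18 MuSC identity genes summed to 2855 to 3335 CPM and 3044 to 5905 CPM, and of the 16 tested 11 were higher in Trpm7 cKO and 1 was lower. Among all tested genes 24.6% were higher and 24.1% lower, the background for this list and the marker lists below. The 8 myogenic commitment genes summed to 2569 to 3053 CPM in control and 866 to 1213 CPM in Trpm7 cKO, and Myod1 fell from 744 ± 111 to 181 ± 36.6 CPM (SD, n = 5 each).

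Markers of other cells were also present, and each list given here except that of tenocytes summed to more in Trpm7 cKO than in control libraries on average. The 20 macrophage and pan-leukocyte markers summed to 392 to 667 CPM in control, and to 3727, 1443, 3566, 6464 and 5943 CPM in Trpm7 cKO replicates 1 to 5, with 18 of 18 tested genes higher and none of the 20 at 0 in all libraries of a genotype. Lyz2 and Ctss, the most abundant of them, reached 81.3 to 176 CPM and 130.5 to 203 CPM in control, against 493 to 1862 CPM and 263 to 1387 CPM in Trpm7 cKO. The 10 endothelial markers summed to 6.43 to 64.8 CPM in control and to 150, 118, 227, 369 and 657 CPM in Trpm7 cKO replicates 1 to 5, none of them at 0 throughout a genotype, and both tested genes, Cdh5 and Pecam1, were higher. The 10 markers of fibroadipogenic progenitors summed to 489 to 716 CPM and 1233 to 1992 CPM, Gsn and Dpt being the most abundant, with all 4 tested genes higher and Pi16 at 0 in every control library. Of these 10 markers, 5 had at most 3 counts in each control library. Of the mural markers, the most abundant being Acta2 and Rgs5, 2 of 2 tested were higher, and the sum was 411 to 663 CPM in control and 892 to 1272 CPM in Trpm7 cKO. Platelet markers, nearly all Pf4, summed to 12.0 to 30.1 CPM and 145 to 396 CPM, with Gp9 at 0 in all libraries and Ppbp at 0 in control. The tenocyte list, nearly all Scx, with Thbs4 next, summed to 96.0 to 135 CPM in control and 21.9 to 44.1 CPM in Trpm7 cKO, with Tnmd and Fmod at 0 in control. Neutrophil markers, led by Csf3r and S100a9, reached at most 3.10 CPM in control and 44.1 CPM in Trpm7 cKO, with Cxcr2 at 0 in control. Lymphocyte markers, led by Nkg7 and Trbc2, reached at most 2.01 and 7.39 CPM, with Cd3e, Cd79a and Nkg7 at 0 in control. Many of the genes described here are also made by macrophages, vessels or fibroblasts, the part of such cells in the differences was not tested, and in these bulk samples fewer cells of a type and less RNA per cell cannot be told apart.

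The genotypes differed in most members that could be tested. A gene was tested where its counts passed edgeR's filter on low values, which 20 of the 44 members did. Of these, 11 were higher in Trpm7 cKO and 4 were lower at an adjusted p below 0.05 (the quasi-likelihood test of edgeR, adjusted by the Benjamini-Hochberg method over all 7753 genes tested), against a background of 24.6% of all tested genes higher and 24.1% lower. Scaled on the MuSC identity genes in place of TMM, which put the median gene at a log2 fold change of -0.49, 10 members were higher and 4 lower, against 11.6% and 40.5% of all genes. The 11 were 55% and the 4 were 20% of the members tested. With a log2 fold change beyond 1.5 required as well, 8 members were higher (background 8.49%) and 0 were lower (background 3.53%); none of the 4 lower members fell by more than 1.5 on the log2 scale in edgeR, whatever its p, and DESeq2 also gave 0. The 5 Trpm7 cKO values all lay above the 5 control values for 9 members (background 16.6%) and all below for 3 (background 17.9%). The median log2 fold change over the 20 was 1.10, beside -0.01 over all genes tested.

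These counts depend on which members passed the filter. The filter's level was 13.4 CPM, taken on library totals without the TMM adjustment. Itga1, Itga6, Itgb2 and Itgb5 reached it in every Trpm7 cKO library and in no control library. These 4 were therefore tested only because they were above it in Trpm7 cKO. Itga6 lay close to that level in control, at 9.29 to 14.1 CPM with the TMM adjustment. Lamb2 reached it in 5 Trpm7 cKO and 2 control libraries, and Itgb6 in 5 control and 3 Trpm7 cKO libraries. The 14 members that reached it in all 10 libraries were 6 higher (42.9%), 3 lower (21.4%) and 5 not called, with a median log2 fold change of 0.30. Of these 14, 3 (21.4%) were higher past both thresholds and 0 were lower past both. Without overlap, 4 (28.6%) were higher and 2 (14.3%) were lower. Without the leukocyte integrins, 19 members were tested, of which 10 were higher and 4 were lower. With the mean level of 18 leukocyte genes as a covariate, Itga1, Lama2 and Nid1 remained called and the other 12 calls were lost, while the share of all genes called fell to 4.88% higher and 1.68% lower. That covariate did not overlap between the genotypes. Among the lost calls, Sparc was then at a log2 fold change of 0.82 (standard error 0.38), Lamb2 at 1.26 (0.77) and Itga7 at -0.45 (0.37), while Fn1 and Itgb2 turned below 0.

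**Figure D1:**
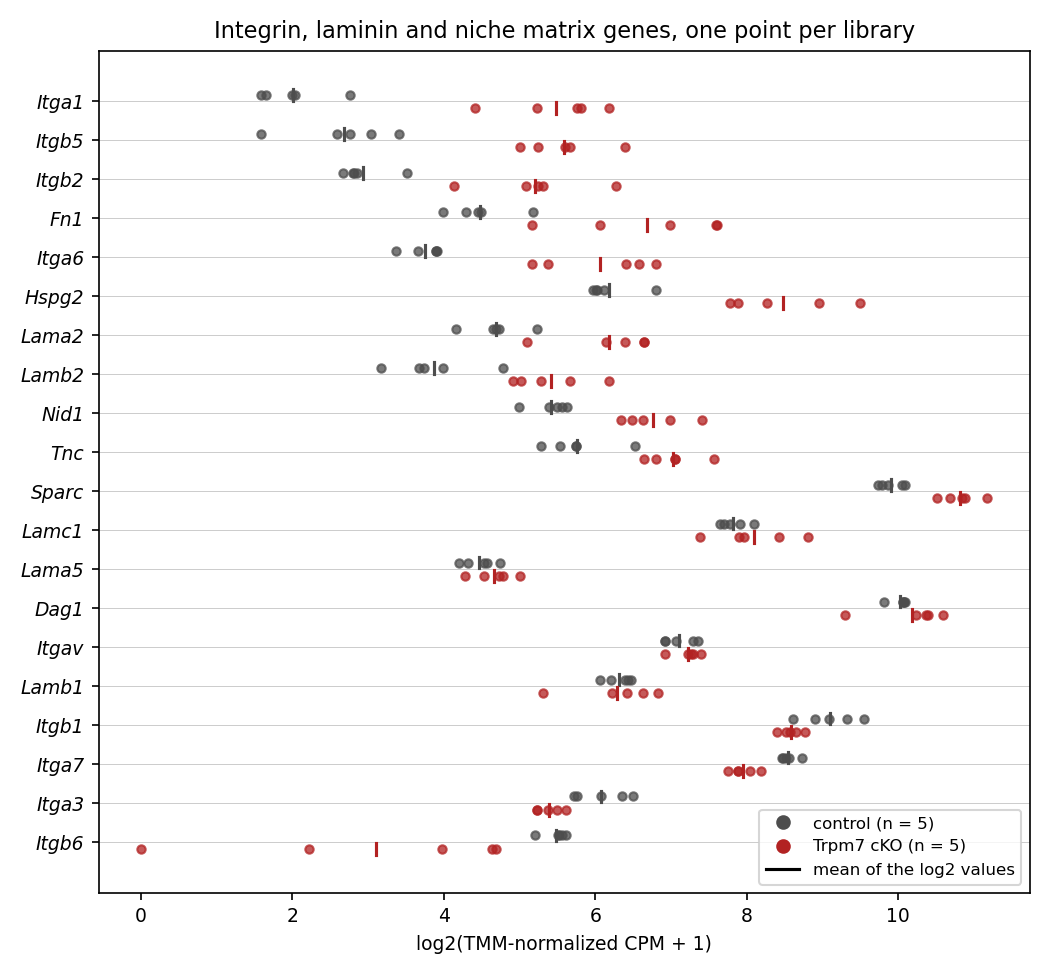
Level of the 20 tested members in each library, as log2 of TMM-normalized CPM plus 1 on the horizontal axis, with 1 point per library (5 control in grey, 5 Trpm7 cKO in red) and a bar at the mean of the log2 values. Itga1, Itgb5, Itga6 and Hspg2 show a gap between the genotypes with Trpm7 cKO above, Itga7 and Itga3 show a small gap with Trpm7 cKO below, and Dag1, Lamb1, Lama5, Lamc1 and Itgav overlap.

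The laminin-binding integrins changed in opposite directions. Itga7, the alpha subunit of the main laminin receptor of skeletal muscle, had normalized levels of 375, 367, 353, 355 and 425 CPM in control replicates 1 to 5 and 237, 263, 292, 235 and 215 CPM in Trpm7 cKO replicates 1 to 5. Every Trpm7 cKO library was below every control library. The log2 fold change of Itga7 was -0.59 (standard error 0.13, edgeR adjusted p = 0.00101), a mean of 375 ± 29.3 CPM against 248 ± 29.8 CPM (SD, n = 5 each). Mettl7b lies on the other strand at the 3′ end of Itga7, but 0% of the 31-base words in the last 500 bases of Itga7 were shared with any other gene.

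Itga3, an alpha subunit that pairs with beta 1 to bind laminins, had 89.5, 51.6, 66.5, 53.2 and 81.0 CPM in control and 40.7, 47.8, 36.5, 36.5 and 44.1 CPM in Trpm7 cKO. The groups did not overlap, although the highest Trpm7 cKO library lay close to the lowest control libraries. Itga3 changed by -0.73 on the log2 scale (standard error 0.21, edgeR adjusted p = 0.00680). With all libraries thinned to the smallest total in a single random draw, neither Itga7 (-0.30) nor Itga3 (-0.17) passed the test. Itga6, the third laminin-binding alpha subunit, which can pair with beta 1 or beta 4, went the other way, from 13.9, 9.29, 13.9, 14.1 and 11.6 CPM in control to 40.7, 35.0, 84.0, 94.4 and 110.4 CPM in Trpm7 cKO. All 5 Trpm7 cKO values were above all control values, and Trpm7 cKO replicates 3, 4 and 5 were well above replicates 1 and 2. Its log2 fold change was 2.42 (standard error 0.31, edgeR adjusted p = 3.04e-06), a 5.36-fold higher level. Endothelial cells, whose markers were also highest in replicates 3 to 5, are known to express Itga6, and their part in this value was not tested.

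Itgb1 encodes the beta 1 subunit that most of these alpha subunits need. It was measured at 542, 390.3, 641, 749.9 and 478 CPM in control and 434, 366, 402, 381 and 337 CPM in Trpm7 cKO. The groups overlapped, since Trpm7 cKO replicates 1 and 3 lay above control replicate 2, and the control libraries were spread far more widely (SD 140.1 CPM) than the Trpm7 cKO libraries (SD 36.8 CPM). Itgb1 was lower by a log2 fold change of -0.54 (standard error 0.16, edgeR adjusted p = 0.00971). Itgb4, the partner of alpha 6 in hemidesmosomes, was too low to be tested, with 4, 6, 10, 9 and 6 counts in control and 0, 1, 0, 1 and 0 counts in Trpm7 cKO. Each control library held more counts of Itgb4 than any Trpm7 cKO library.

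The collagen-binding and RGD-binding receptors followed, and the highest fold change of all tested members was in a collagen receptor subunit. Itga1, which pairs with beta 1 to bind collagen IV, had 3, 3, 2, 2 and 5 counts in control and 11, 30, 10, 32 and 13 counts in Trpm7 cKO. Normalized, this was 2.98, 3.10, 2.14, 2.01 and 5.79 CPM against 20.3, 55.2, 36.5, 53.0 and 71.7 CPM, with no overlap. Itga1 was higher by 3.77 on the log2 scale (standard error 0.38, edgeR adjusted p = 2.24e-07), a 13.7-fold higher level that rests on few control counts. The other collagen-binding alpha subunits were hardly detected, with at most 3 counts of Itga2 and 1 of Itga11 in any library and none of Itga10.

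Itgav, the alpha subunit of the RGD-binding receptors for vitronectin and fibronectin, lay at 120.3, 121, 163, 156 and 133 CPM in control and 168, 153, 121, 156 and 149 CPM in Trpm7 cKO. The groups overlapped throughout, and the log2 fold change of 0.12 (standard error 0.15, edgeR adjusted p = 0.530) was within the replicate error and turned to -0.36 when scaled on the MuSC identity genes. Of the beta subunits other than Itgb1 that pair with alpha v, Itgb5 and Itgb6 changed, in opposite directions. Itgb5, which forms the vitronectin receptor alpha v beta 5, rose from 1.99, 7.23, 9.65, 5.02 and 5.79 CPM to 37.0, 31.3, 47.5, 49.7 and 82.8 CPM. No Trpm7 cKO library was near the control range. Its log2 fold change was 2.92 (standard error 0.34, edgeR adjusted p = 1.04e-06), a 7.57-fold higher level.

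Itgb6, which with alpha v binds fibronectin and latent TGF-beta, fell. Its levels were 35.8, 44.4, 45.0, 48.2 and 46.3 CPM in control, and 14.8, 23.9, 3.65, 24.9 and 0 CPM in Trpm7 cKO. Trpm7 cKO replicates 3 and 5, the smallest libraries, held 1 and 0 counts of Itgb6, where 0 counts in replicate 5 allow up to 3 counts, and the other three held 8 to 15. For Itgb6 the log2 fold change was -1.38 (standard error 0.32, edgeR adjusted p = 0.00131), with no overlap between the genotypes. Itgb8 and Itgb3, which also pair with alpha v, were too low to be tested, with 2 to 5 counts of Itgb8 in every library and at most 4 counts of Itgb3. Itga5, the alpha subunit of the classical fibronectin receptor, had 1, 2, 0, 1 and 3 counts in control and 4, 4, 2, 7 and 5 counts in Trpm7 cKO, so that more counts came from the smaller libraries. Itga8, another RGD-binding subunit, had 1 to 5 counts in control and 0 to 10 in Trpm7 cKO, and Itga4, which binds fibronectin and VCAM1, had 0 to 5 and 3 to 17.

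**Figure D2:**
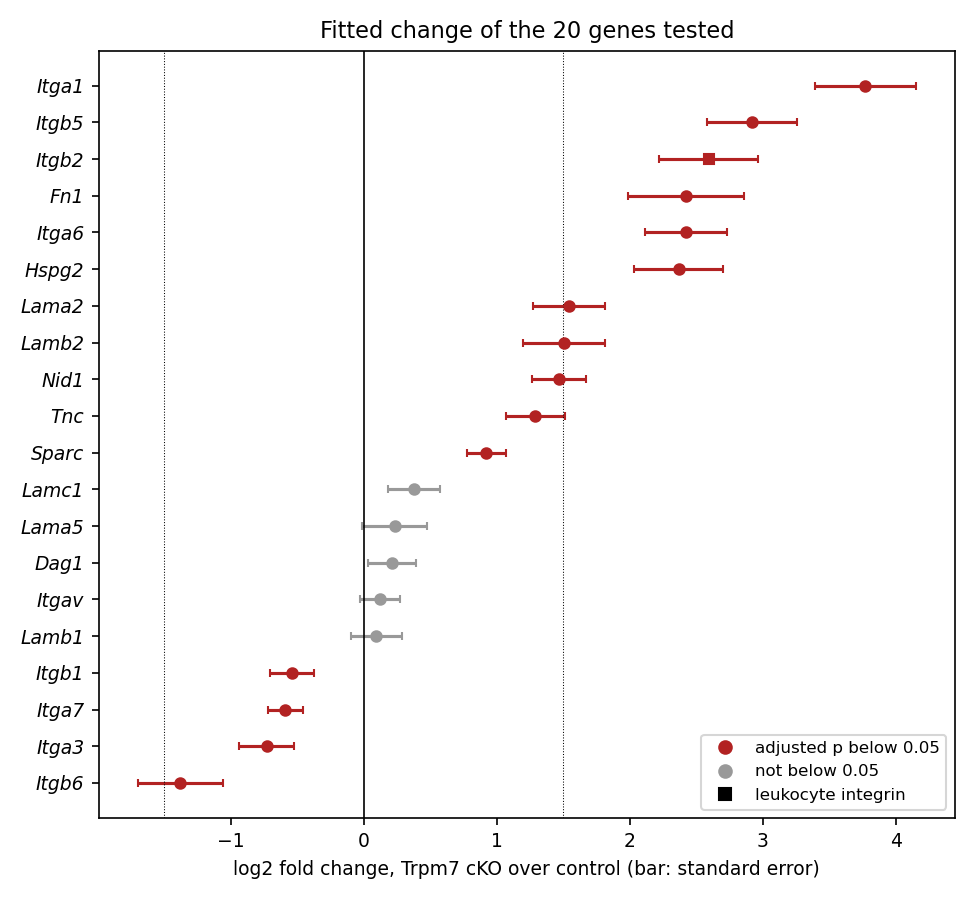
Fitted log2 fold change of each of the 20 tested members, Trpm7 cKO over control, with its standard error as a bar and dotted lines at a log2 fold change of 1.5 in both directions. Integrin subunits stand at both ends, from Itgb6 at -1.38 to Itga1 at 3.77, while every matrix gene with an adjusted p below 0.05 lies to the right of 0.

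The sequences before the start of Itga1, Itgb5 and Itgb1 are shown because Itga1 and Itgb5 had the largest rises among the receptors and Itgb1, the common partner, fell. They are the 250 bases before the start site in RefSeq (GRCm38.p6), 5′ to 3′ on the strand of the gene, and each ends at the base before the gene's start in the GENCODE annotation of GRCm38. Capitals mark CAGCTG, an E-box of the form that MyoD family factors are known to bind, which reads the same on both strands.
Itga1: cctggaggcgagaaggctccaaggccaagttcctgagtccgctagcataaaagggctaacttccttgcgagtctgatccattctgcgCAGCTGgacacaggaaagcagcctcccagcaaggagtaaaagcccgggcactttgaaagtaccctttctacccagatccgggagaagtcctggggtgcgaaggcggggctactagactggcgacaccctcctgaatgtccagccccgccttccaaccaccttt
Itgb5: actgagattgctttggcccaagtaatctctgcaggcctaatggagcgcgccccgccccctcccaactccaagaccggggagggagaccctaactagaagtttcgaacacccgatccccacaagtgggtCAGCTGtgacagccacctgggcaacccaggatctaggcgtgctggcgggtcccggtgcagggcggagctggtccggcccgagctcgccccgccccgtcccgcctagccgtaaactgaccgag
Itgb1: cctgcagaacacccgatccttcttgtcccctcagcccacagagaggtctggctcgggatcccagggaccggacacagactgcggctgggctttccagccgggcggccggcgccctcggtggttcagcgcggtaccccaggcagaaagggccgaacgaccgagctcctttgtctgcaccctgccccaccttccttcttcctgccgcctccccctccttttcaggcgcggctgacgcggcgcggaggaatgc
The Itga1 sequence is chr13:115101965-115102214 on the minus strand, the Itgb5 sequence is chr16:33829415-33829664 on the plus strand and the Itgb1 sequence is chr8:128685404-128685653 on the plus strand. All 3 lie outside the annotated gene, directly upstream of its first exon. The CAGCTG begins 163 bases before the start of Itga1 and 122 bases before that of Itgb5, and Itgb1 has none in this window. Of the 44 members, 29 matched a RefSeq promoter, and 7 of the 29 held CAGCTG (Itga1, Itga2b, Itga4, Itga9, Itgb5, Lamb3 and Sparc). The share was 12.8% of all 27025 promoters and 10.7% of the 6107 promoters of tested genes. The windows of Itga9, Lamb3 and Sparc lie within the gene as annotated in GENCODE. Hspg2, Lama2, Lamb2, Nid1 and Tnc, called higher, had no CAGCTG in their windows, nor had Itga3 and Itgb6, called lower. TGANTCA, the form bound by AP-1 factors, was found only in Itgax among the 29 and in 6.87% of all promoters. A match describes these letters and is no evidence of binding.

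Of the 4 leukocyte integrins, 1 was tested, and it was higher in Trpm7 cKO. Itgb2, the beta 2 subunit shared by the leukocyte integrins, was at 5.97, 6.20, 5.36, 6.02 and 10.4 CPM in control and 37.0, 16.6, 32.9, 76.2 and 38.6 CPM in Trpm7 cKO. The groups did not overlap, and Itgb2 was lowest in replicate 2 and highest in replicate 4, as was the leukocyte marker sum. Its log2 fold change was 2.60 (standard error 0.37, edgeR adjusted p = 1.08e-05). Itgam, the alpha chain of the macrophage integrin Mac-1, had 2, 2, 5, 1 and 3 counts in control and 16, 3, 12, 38 and 16 counts in Trpm7 cKO and was not tested. Itgax, typical of dendritic cells, reached at most 2 counts in control and 8 in Trpm7 cKO, and Itgal, of lymphocytes, at most 1 and 4. Itgb7 had 0 counts in every control library and at most 2 in Trpm7 cKO. Itgae, its epithelium-homing partner, had at most 1 count, Itga9 at most 3, and the platelet subunit Itga2b 2 to 4 counts in control and 1 to 4 in Trpm7 cKO.

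Shares within a family do not depend on how libraries are scaled. Of all alpha subunit counts in a library, Itga7 took 61.0% ± 2.58 in control and 37.4% ± 6.69 in Trpm7 cKO (SD, n = 5 each), without overlap. Itga3 took 11.1% and 6.19%, Itga6 took 2.05% and 10.5%, and Itga1 took 0.513% and 6.94%, all without overlap. Itgav took 22.6% ± 3.56 and 22.5% ± 4.36, with overlap. The 3 laminin-binding subunits together fell from 74.1% ± 2.96 to 54.1% ± 4.76 of the alpha counts, while the 3 leukocyte alpha subunits made up 0.651% ± 0.378 in control and 8.37% ± 4.67 in Trpm7 cKO, between 1.22% in replicate 2 and 12.9% in replicate 5.

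Among the beta subunits Itgb1 took 88.8% ± 2.85 of the counts in control and 76.7% ± 6.09 in Trpm7 cKO (SD, n = 5 each), and the ranges of 84.9% to 91.4% and 69.3% to 81.6% did not overlap. Itgb5 rose from 0.984% to 9.98% and Itgb2 from 1.15% to 7.84% of the beta counts, and Itgb6 fell from 7.25% to 2.67%. Alpha subunits summed to 569 to 683 CPM in control and 595 to 767 CPM in Trpm7 cKO, and beta subunits to 460 to 822 CPM and 449 to 550.1 CPM, both overlapping. These sums rest on 551 to 620 alpha counts per control library and 139 to 431 per Trpm7 cKO library.

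**Figure D3:**
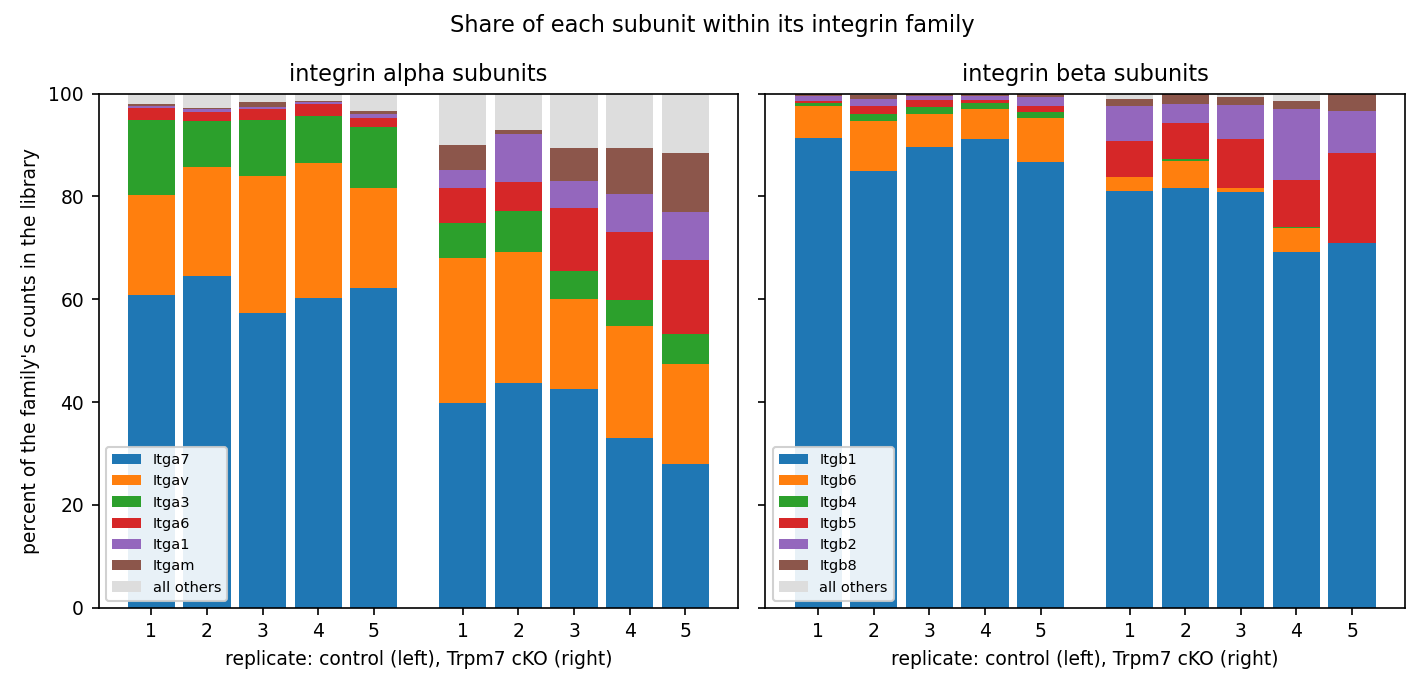
Percent of the integrin alpha counts (left) and beta counts (right) of each library taken by single subunits, with the 5 control libraries to the left and the 5 Trpm7 cKO libraries to the right in each panel. Itga7 falls from a mean of 61.0% to 37.4% and Itgb1 from 88.8% to 76.7%, while Itga6, Itga1, Itgb5 and Itgb2 widen in each Trpm7 cKO library.

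Of the 11 laminin chains 5 were tested, of which Lama2 and Lamb2 were higher and the other three were not called. Lama2, the alpha chain of the laminin of the mature muscle basement membrane, had 16.9, 24.8, 36.5, 24.1 and 25.5 CPM in control and 83.1, 99.4, 69.4, 33.1 and 99.3 CPM in Trpm7 cKO. Only Trpm7 cKO replicate 4 fell within the control range, just under control replicate 3. The log2 fold change of Lama2 was 1.54 (standard error 0.27, edgeR adjusted p = 1.04e-04). Of the 31-base words in the last 500 bases of Lama2, 27.2% also lie in Gm48084 on the other strand, whose reads cannot be told apart from those of Lama2 without strand.

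Lamb2, the beta chain that replaces beta 1 at the neuromuscular junction and in vessel walls, had 14.9, 12.4, 11.8, 8.03 and 26.6 CPM in control and 31.4, 49.7, 29.2, 38.1 and 71.7 CPM in Trpm7 cKO. The groups did not overlap, although control replicate 5 came close to the lowest Trpm7 cKO libraries. Lamb2 rose by a log2 fold change of 1.51 (standard error 0.31, edgeR adjusted p = 4.50e-04).

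The other tested chains did not pass the test. Lamc1, the gamma chain of nearly all laminins, had 199, 208, 239, 272 and 220.0 CPM in control and 447, 342, 237, 250.2 and 166 CPM in Trpm7 cKO. Trpm7 cKO replicates 1 and 2 lay above all controls and replicate 5 below all of them, which gave a log2 fold change of 0.38 (standard error 0.19, edgeR adjusted p = 0.116). Without replicate 5, the smallest library, it was 0.50 with an edgeR adjusted p of 0.0235. With all libraries thinned to the smallest total, in that single random draw, it was 0.56 with an edgeR adjusted p of 0.0344. Lamb1, the common beta chain, was at 79.1 ± 9.43 CPM in control and 81.6 ± 28.2 CPM in Trpm7 cKO (SD, n = 5 each), with a log2 fold change of 0.09 (standard error 0.19, edgeR adjusted p = 0.717). Lama5, a widely expressed alpha chain, was at 21.4 ± 3.30 CPM and 24.8 ± 4.82 CPM (SD, n = 5 each), with a log2 fold change of 0.23 (standard error 0.24, edgeR adjusted p = 0.459). Scaled on the MuSC identity genes, the log2 fold changes of Lamc1 (-0.16), Lamb1 (-0.37) and Lama5 (-0.25) were below 0.

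All laminin chains together summed to 321 to 421 CPM in control and 436 to 713 CPM in Trpm7 cKO. Among the alpha chains, Lama5 took 44.1% of the counts in control and 22.0% in Trpm7 cKO, with every Trpm7 cKO library lower, while Lama2 took 51.6% and 63.7% with overlap and Lama4, a chain of vessel laminins, 2.55% and 11.5%. These shares rest on 37 to 59 alpha chain counts per control library and 25 to 80 per Trpm7 cKO library. Among the beta chains, the share of Lamb1 was 82.2% in control and 57.9% in Trpm7 cKO, without overlap. Lama4 itself had 0, 2, 0, 3 and 1 counts in control and 5, 5, 2, 12 and 3 counts in Trpm7 cKO and was not tested. Lamb3 and Lama3, known from epithelial laminins, had at most 4 counts in any control library, and up to 10 and 3 counts in Trpm7 cKO libraries. Lamc3 had at most 1 count in any library, and Lama1 had 1 count in all.

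Of the genes for the linkers between laminin and the rest of the basement membrane, Nid1 and Hspg2 rose and Nid2 was too low to be tested. Nid1, nidogen 1, had 40.8, 31.0, 48.3, 46.2 and 44.0 CPM in control and 126, 169, 80.4, 97.8 and 88.3 CPM in Trpm7 cKO. Every Trpm7 cKO library was above every control library. The log2 fold change of Nid1 was 1.47 (standard error 0.20, edgeR adjusted p = 7.53e-06), just under the threshold of 1.5. Nid2 had at most 1 count in any library, and 86.6% of the 31-base words of its last 500 bases are shared with Rtraf on the other strand.

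Hspg2, the heparan sulfate proteoglycan perlecan, had 61.7, 64.0, 68.6, 63.2 and 111 CPM in control and 235, 307, 497, 219 and 723 CPM in Trpm7 cKO. The groups did not overlap, and the log2 fold change was 2.37 (standard error 0.33, edgeR adjusted p = 7.84e-05), a 5.16-fold higher level. Before normalization, Hspg2 had 62, 62, 64, 63 and 96 counts in control and 127, 167, 136, 132 and 131 counts in Trpm7 cKO, so that the counts themselves were higher in the smaller libraries. Among the Trpm7 cKO libraries the highest count of Hspg2 was 1.31 times the lowest, while the library totals differed 2.82-fold, and its normalized level therefore varied 3.31-fold, the highest values being in the smallest libraries. Itga7, by contrast, varied 3.67-fold in counts and 1.36-fold in normalized level among the same libraries. Endothelial markers were also highest in Trpm7 cKO replicate 5 and, among controls, in replicate 5, where Hspg2 was highest too, and their part in the value of Hspg2 was not tested. Agrn, agrin, which clusters acetylcholine receptors at the neuromuscular junction, was not tested, with 3 to 9 counts in control and 2 to 10 in Trpm7 cKO.

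**Figure D4:**
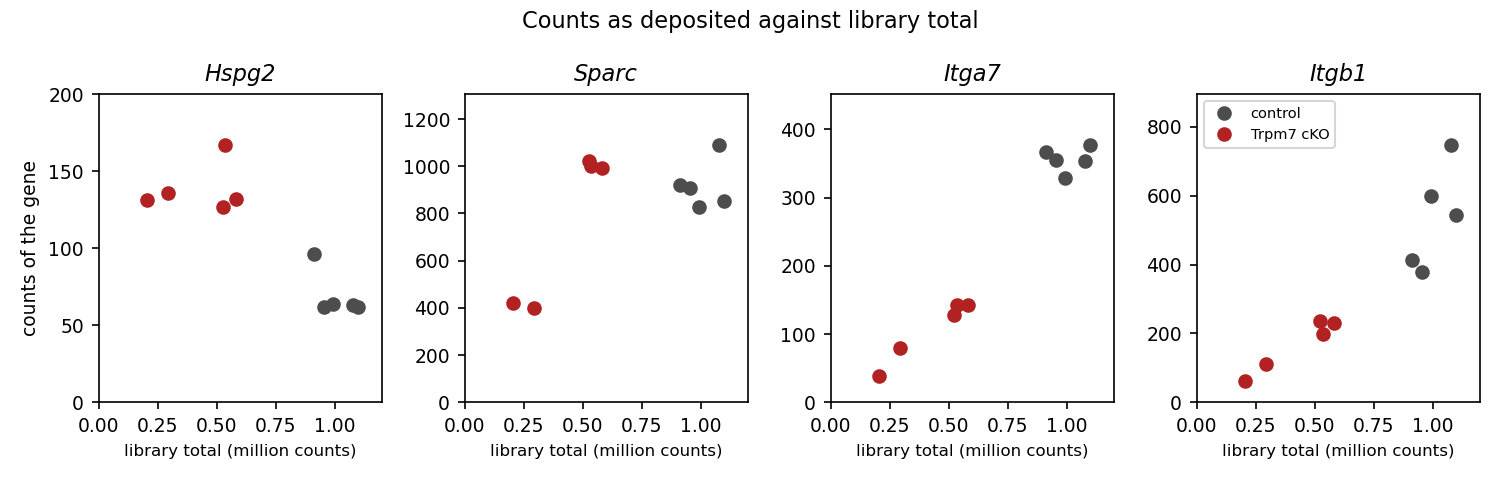
Counts of Hspg2, Sparc, Itga7 and Itgb1 as deposited, on the vertical axis, against the total counts of each library, with 5 control libraries in grey and 5 Trpm7 cKO libraries in red. Hspg2 stays between 127 and 167 counts over all Trpm7 cKO totals, whereas Itga7 and Itgb1 fall with the total.

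Of the matrix proteins known from injured tissue, each rose. Fn1, fibronectin, had 14.9, 18.6, 21.4, 35.1 and 20.8 CPM in control and 126, 35.0, 65.8, 194 and 193 CPM in Trpm7 cKO. Trpm7 cKO replicate 2 was at the level of control replicate 4 and replicates 1, 3, 4 and 5 were above all controls. For Fn1 the log2 fold change was 2.42 (standard error 0.44, edgeR adjusted p = 7.15e-04), and -0.55 with the leukocyte covariate (edgeR adjusted p = 0.744). Fn1 was lowest in replicate 2 and highest in replicates 4 and 5, as was the leukocyte marker sum, whose part in the value of Fn1 was not tested.

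Tnc, tenascin C, an anti-adhesive matrix protein, had 37.8, 52.7, 52.6, 45.2 and 91.5 CPM in control and 111, 132, 132, 189 and 99.3 CPM in Trpm7 cKO. Control replicate 5 stood well above the other controls and still below every Trpm7 cKO library. Tnc rose by a log2 fold change of 1.29 (standard error 0.22, edgeR adjusted p = 8.68e-05). Sparc, a secreted collagen-binding protein and one of the 3 most abundant members, had 849, 938, 888, 1094 and 1066 CPM in control and 1890.3, 1844, 1462, 1644 and 2323 CPM in Trpm7 cKO. The groups did not overlap, and the log2 fold change of Sparc was 0.92 (standard error 0.15, edgeR adjusted p = 3.63e-05), a 1.89-fold higher level. Scaled on the MuSC identity genes, Sparc no longer passed (0.43, edgeR adjusted p = 0.0950).

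Dag1, dystroglycan, the laminin receptor outside the integrin family, did not pass the test. It was at 899.9, 1068, 1092, 1085 and 1074 CPM in control and 1550.3, 1347, 1326, 631 and 1203 CPM in Trpm7 cKO. Trpm7 cKO replicates 1, 2, 3 and 5 lay above all controls and replicate 4 lay below all of them. The log2 fold change of Dag1 was 0.21 (standard error 0.18, edgeR adjusted p = 0.351), and -0.35 when scaled on the MuSC identity genes. Without Trpm7 cKO replicate 4 it was 0.36, with an edgeR adjusted p of 0.0242. Replicate 4 also had the lowest Pax7 level of the Trpm7 cKO libraries, 265 CPM, and the highest leukocyte marker sum, whose part in the value of Dag1 was not tested. Dag1, Sparc and Itgb1 together made up 65.0% to 69.6% of all member counts in control and 56.2% to 65.7% in Trpm7 cKO libraries.

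**Figure D5:**
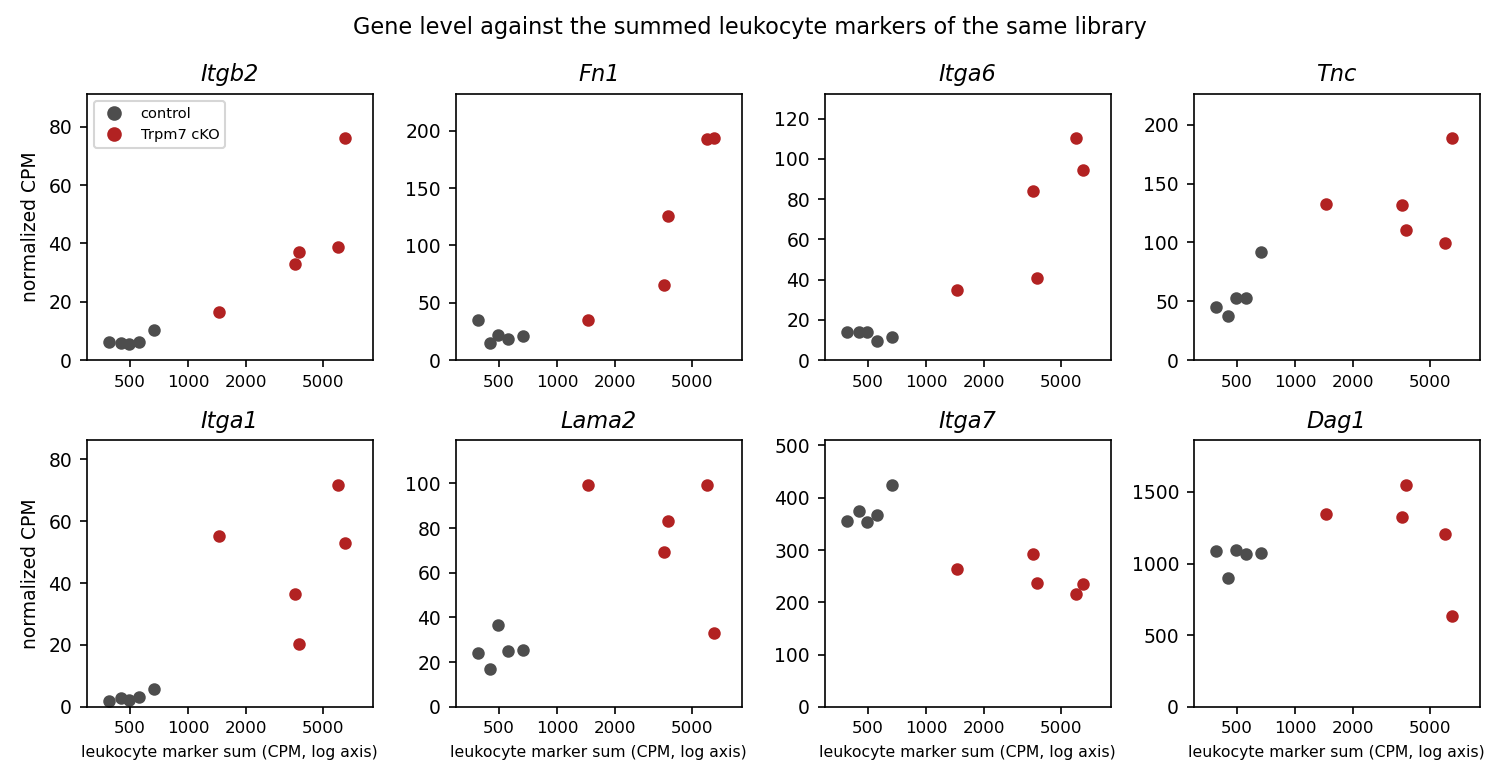
Normalized CPM of 8 members in each library against the summed CPM of the 20 macrophage and pan-leukocyte markers in the same library, on a log axis, with control in grey and Trpm7 cKO in red. Within the 5 Trpm7 cKO libraries Itgb2 and Fn1 are lowest at the smallest marker sum of 1443 CPM, whereas Lama2, Itga1 and Tnc are already high there, and Dag1 is lowest at the largest sum of 6464 CPM.

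Trpm7 cKO replicate 2 had the least leukocyte and endothelial signal of its genotype, although its sums of 1443 CPM and 118 CPM were above every control. In that library Itga1 was at 55.2 CPM, Nid1 at 169 CPM, Lama2 at 99.4 CPM, Itgb5 at 31.3 CPM and Hspg2 at 307 CPM, all above the highest control library. Itgb2, at 16.6 CPM, was above every control as well, and Fn1 was not. Itga1, Itgb5 and Itgb2 reached the filter's level in every Trpm7 cKO library and in no control library. Their place above the controls was therefore partly set by that filter. Itga7, at 263 CPM, and Itgb6, at 23.9 CPM, were below the lowest control library. Its fibroadipogenic progenitor sum of 1579 CPM and its mural sum of 1272 CPM were also above every control. The part of other cells in the values of this library was not tested.

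Genes that work with these receptors included calls in both directions, as did all tested genes, of which 24.6% were higher and 24.1% lower. Most of these lists are too short for their shares to be told apart from that background. Of 21 tested integrin adaptors, the proteins that couple the integrin tail to actin, 3 were higher, 5 were lower and the median log2 fold change was 0.05. That is a smaller share higher than among all tested genes, and about the same share lower. Tln2, a talin, rose from 44.4 ± 4.27 to 131 ± 45.3 CPM (SD, n = 5 each), and Nedd9 and Fermt2 (kindlin 2) had log2 fold changes of 1.09 and 0.60. Parvb, beta parvin, fell from 109 ± 6.28 to 48.5 ± 25.3 CPM (SD, n = 5 each), and Tns3 and the focal adhesion kinase relative Ptk2b had log2 fold changes of -0.94 and -0.91. Of the 9 tested genes of the dystrophin complex, 4 were higher and 2 lower, with a median of 0.28. Dmd, dystrophin, rose from 28.3 ± 4.98 to 84.5 ± 27.8 CPM and Sntb2, a syntrophin, from 28.1 ± 5.11 to 87.9 ± 17.8 CPM (SD, n = 5 each), with log2 fold changes of 1.57 and 1.64, and Sspn had 1.07. Sgcb, beta sarcoglycan, and Dtna, alpha dystrobrevin, had log2 fold changes of -0.72 and -1.11.

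Of 7 tested genes for the glycosylation that dystroglycan needs to bind laminin, 2 were higher (Dpm3 and Rxylt1, log2 fold changes 1.02 and 0.77) and 2 were lower (Pomgnt1 and Dpm2, -1.24 and -0.95), and the median was -0.38. Of 6 tested tetraspanins, which organize integrins in the membrane, the leukocyte tetraspanin Cd53 and Cd82 were higher (2.27 and 0.61) and Cd63 and Cd81 were lower (-0.55 and -0.67), with a median of -0.0046. Of 7 other matrix receptors, the laminin receptor Bcam and syndecan 4 (Sdc4) were higher (0.81 and 0.46), and the collagen receptor Ddr2, the hyaluronan receptor Cd44 and Sdc1 were lower (-0.72, -0.55 and -0.55), with a median of -0.24.

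Of 11 tested matrix proteases and inhibitors, 6 were higher and 1 was lower, with a median of 0.96. Plau, the urokinase, rose from 52.5 ± 15.5 to 171 ± 68.7 CPM and its receptor Plaur from 12.4 ± 3.30 to 45.0 ± 9.89 CPM (SD, n = 5 each), with log2 fold changes of 1.64 and 1.80 and no overlap. Adam12 was also higher, with a log2 fold change of 1.42, and Adam19 fell by 1.23 on the log2 scale. Adjusted p-values of all genes named in these lists were below 0.05 in the same edgeR test, and the lists were read beside the 24.6% and 24.1% of all tested genes that were higher and lower.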

How the data were processed

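RNA of 3000 sorted cells per library was measured by CEL-Seq2 in 5 control and 5 Trpm7 cKO libraries. According to the submitters' processing notes and the paper's methods, the authors handled UMIs with UMI-tools 1.1.4, trimmed with Trim Galore 0.6.10, aligned to GRCm38 with HISAT2 2.2.1 and assigned reads with featureCounts 2.0.6. What the authors deposited is a table of whole counts of UMIs for each gene, without normalization. The annotation release and strand setting are not given in the sources used here. Reads of genes that overlap on the other strand can therefore be mixed.

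All genes were fitted together with edgeR 4.0.16 in R 4.3.3: filterByExpr (minimum count 10, minimum total 15) kept 7753 genes, and TMM factors, a robust quasi-likelihood fit with genotype as its only term and a two-sided quasi-likelihood F test followed, adjusted by the Benjamini-Hochberg method. Calls used an adjusted p below 0.05, and also a log2 fold change beyond 1.5 where stated. CPM were computed on the TMM-scaled library totals. Fold changes of edgeR used its default prior count. A prior count of 2 was used only for the log2 CPM behind the leukocyte covariate and the comparison of same-numbered libraries. Libraries held 205986 to 1097709 counts. Counting floors cover counting error only, and a count of 0 allows up to 3 counts. The tests were first tested on simulated data. Replicates were compared pairwise, and every pair differed by more than counting noise.

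The members, gene lists and alternatives were chosen with earlier results of these data known. Named genes were the 44 members, up to 3 genes per direction with the lowest adjusted p from each list of related genes, the 2 most abundant genes of each marker list, and Trpm7, Pax7 and Myod1. Some genes that this rule names are not reported here. Symbols absent from the table and other genes of the paper were not analysed here. Alternatives were DESeq2 1.42.0, RLE factors, library totals, scaling on MuSC identity genes, no filter, counts thinned to 205986 per library, a leukocyte covariate, the replicate number as a block, and libraries left out. The thinning was a single random draw, so that its results carry the error of that draw.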

Additional observations from a re-analysis of the deposited data

Results flagged for a closer look

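In 40 groups of 5 libraries (20 members in each genotype), 5 values stood apart from the rest of their group by Dixon's test, where chance alone marks about 1 in 20 groups. Dag1 in control replicate 1 was 899.9 CPM, against 1068 to 1092 CPM in the other controls. The remaining 4 were all in control replicate 5 and all high. Hspg2 was 111 CPM there, against 61.7 to 68.6 CPM in the other controls, and Tnc was 91.5 CPM, against 37.8 to 52.7 CPM. Itga1 was 5.79 CPM, against 2.01 to 3.10 CPM, and Itgb2 was 10.4 CPM, against 5.36 to 6.20 CPM, values that rest on 5 and 9 counts. Control replicate 5 also had the highest leukocyte sum (667 CPM) and endothelial sum (64.8 CPM) of the controls, and their part in these values was not tested. Without control replicate 5 the calls of Hspg2, Tnc, Itga1 and Itgb2 were kept.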

How the results depend on the processing

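The 11 higher and 4 lower calls were the same in number with DESeq2, RLE factors, library totals alone and the replicate block (11 higher, 4 lower). Same-numbered libraries of both genotypes showed no clear shared deviation (correlations -0.12 to 0.18, 1 of 5 correlating best with its own number). The main fit therefore did not treat the numbers as pairs, although 5 weak correlations cannot decide whether libraries were paired.

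Scaling on 16 MuSC identity genes moved the median of all genes by -0.49 on the log2 scale. With TMM those 16 had a median log2 fold change of 0.80, so that scaling on them lowers the fold changes of other genes. This scaling left 6 members past both thresholds higher (main 8) and 6 non-overlapping higher (main 9). It put 1 past both lower (main 0) and 5 non-overlapping lower (main 3). It ended the call of Sparc (0.43, adjusted p = 0.0950). It turned Dag1 (-0.35), Itgav (-0.36), Lama5 (-0.25), Lamb1 (-0.37) and Lamc1 (-0.16), none of which passed the test there. With no filter 43 members were tested, the median of all genes was 0.17 and 13.1% of all genes were higher and 12.0% lower: 22 were higher, 17 past both thresholds and 14 non-overlapping, 2 were lower past both, and Dag1 (-7.90e-04), Itgav (-0.082) and Lamb1 (-0.11) turned. Of the 23 members added, 11 were higher and 1 (Itgb4) lower. Thinned to 205986 counts, 11 members were tested, with 5 higher (among them Lamc1, 0.56, adjusted p = 0.0344) and 1 lower (all genes 23.7% and 22.7%), 3 past both, and 4 higher and 0 lower without overlap; fewer genes passed the filter there. Itgav then was -0.059, its share of alpha counts differed by -5.66 percentage points (main -0.14), and Itga3 (-0.17) and Itga7 (-0.30) no longer passed.

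With the mean of 18 leukocyte genes as a covariate, which does not overlap between the genotypes (highest control 4.48, lowest Trpm7 cKO 5.67), 3 members stayed higher (Itga1, Lama2 and Nid1), 3 past both, and 0 were lower, against 4.88% and 1.68% of all genes; Fn1 (-0.55) and Itgb2 (-0.30) turned. The cause was not tested.

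Leaving out each library in turn gave 11 to 12 higher, 4 lower, 0 to 1 past both lower, and kept each of the 15 calls. The 1 arose without Trpm7 cKO replicate 2 or 4. Lamb1 ranged from -0.0080 (without Trpm7 cKO replicate 3) to 0.20. Without Trpm7 cKO replicates 4 and 5 both, 14 members did not overlap in the higher direction, and Dag1 (0.41) and Lamc1 (0.59) were called. Depth limits the members under 10 counts in every library, which were not tested with the filter. Without it some were called on few counts. Itga5, with at most 3 counts in control and 7 in Trpm7 cKO libraries, was higher there (2.51, edgeR adjusted p = 7.04e-04). Others, such as Itga9, were not called.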
